A study of Mus musculus with 4 samples.

Results

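Candidate non-canonical spliced regions in the genes of splicing factors and other RNA-binding proteins are described. A region is a gap in the genome between the parts of a split RNA-Seq read, listed by the authors with its gene, its number of supporting reads, its splice length and its boundaries. Members were the regions whose listed gene symbol begins with 1 of 21 prefixes of these families, such as Srsf, Hnrn, Sf3, Ddx or Pabp. They were 47 of the 2588 listed regions. The Dtt list held 46 of them, from 40 genes, among its 2533 regions, which is 1.82% of the list, and 118 of its 6436 supporting reads, which is 1.83%. The Tg list held 1, *Dhx15*, among its 55 regions. By position, a pair of regions matched a GENCODE vM1 gene of another name. The region listed as *Srsf12* lies in *Srek1*, which encodes an SR-related protein. The region listed as *Rbm4* lies in a vM1 gene record named *Rbm14*, and whether this record also covers *Rbm4* was not tested.

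The regions came from mouse embryonic fibroblasts (MEFs) of the C57BL/6 strain, from 2 experiments with 1 Het and 1 KO library each. The Het cells carry 1 working copy of *Ire1*α (Ire1α+/-), the ER stress sensor that cuts the *Xbp1* mRNA, and the KO cells carry none (Ire1α-/-). In the Tg experiment, the Het cells received 500 nM thapsigargin for 4 hours, and in the Dtt experiment 1 mM dithiothreitol for 4 hours. The KO cells of both experiments are untreated by their labels but treated by the study's methods. The KO allele of the Tg experiment lacks the kinase domain, and the allele of the Dtt experiment is a larger deletion. Reads were also longer in the Dtt experiment, and the study reports more of them for its Het library. The study's threshold for joining read parts into a region also differed. Treatment, allele, read length, read number and this threshold cannot be told apart between the lists.

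Most introns begin with GT at the donor, the 5′ splice site, and end with AG at the acceptor, the 3′ splice site. SR proteins and hnRNPs bind pre-mRNA and promote or block the use of nearby sites, the U snRNPs and the SF3 complexes recognise the sites and the branch point, and DEAD-box and DEAH-box helicases remodel the spliceosome. Many of these genes splice their own transcripts in alternative ways, and inclusion of a "poison" exon with a stop codon is a known means by which SR protein genes limit their own level.

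Both lists held numbers for the Het library only. The KO column had 0 numbers for the members, since regions also seen in the KO cells had been left out. With 1 library per group, no difference between genotypes or treatments was tested. Intervals below are 95% intervals that cover counting error only. The lists hold a part of each library, no gene expression levels and no region with fewer than 2 reads. For scale, the known 26 nt region of *Xbp1* had 173 reads in the Dtt list and 21 in the Tg list.

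The ends that the read counts and end types below turn on are shown first, 5′ to 3′ on the strand of the gene, from the mm9 assembly. A donor line gives 10 kept bases and the first 10 removed bases, with the first removed pair in capitals, and an acceptor line gives the last 20 removed bases and 10 kept bases, with the last removed pair in capitals. The regions are chr10:80266469-80266545 of *Sf3a2* (plus strand), chr10:116798417-116798829 of *Cpsf6* (minus strand), chr8:113353448-113355383 of *Sf3b3* (minus strand) and chr15:36525855-36526313 of *Pabpc1* (minus strand). The first pair had the most reads, and the other pair had the new ends most and least like annotated sites among the members with 3 or more reads.
Sf3a2 donor: tgctttcaagGTagcgaccc
Sf3a2 acceptor: ccctccttggggtgctgcAGcctctgactt
Cpsf6 donor: ggcctaaaagGTctttattt
Cpsf6 acceptor: tccttttctctattttatAGctggacaaac
Sf3b3 donor: cacattgaagGTaagtgtcc
Sf3b3 acceptor: cctttttttctcttccacAGgtggctggtg
Pabpc1 donor: gtctaagtgaGTtctccctc
Pabpc1 acceptor: tctttttttaacatttacAGattgatcagg

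The ends of the longer regions that were not GT-AG are shown in the same way, because their letters differ from those of most introns. They are chr5:100392900-100393002 of *Hnrnpd*, chr11:106644061-106645272 of *Ddx5* and chr19:5283947-5284574 of *Sf3b2*, all on the minus strand, and chr13:38309365-38318742 of *Snrnp48* on the plus strand.
Hnrnpd donor: agaggtggagGTaagctgta
Hnrnpd acceptor side: gtgaacctattaatgtgcTGcaggccccag
Ddx5 donor: agagggctagGTtagtacaa
Ddx5 acceptor side: tatttttggtctggctgtTGtggtgtgcaa
Sf3b2 donor: ttattatgagGTtggggagg
Sf3b2 acceptor side: agctctgctttttcttcaGGggaaggagtt
Snrnp48 donor side: atacactgagGCaagtttca
Snrnp48 acceptor: ataatttttctctatttcAGggatggagaa

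Support was low for every member. In the Dtt list, 31 of the 46 regions had 2 reads, 8 had 3, 5 had 4, 1 had 5 and 1 had 7. Regions with exactly 2 reads made up 67.4% of the members (Wilson interval 53.0 to 79.1%) and 76.4% of the whole list. At 3 or more reads there were 15 members, 32.6% (20.9 to 47.0%), beside 23.6% of the list. At 4 or more there were 7 members, 15.2% (7.57 to 28.2%), beside 8.33%, and at 5 or more there were 2, 4.35% (1.20 to 14.5%), beside 3.51%. Each of these intervals includes the share of the whole list. An exact Poisson interval runs from 0.242 to 7.22 for 2 reads and from 2.81 to 14.4 for 7 reads, so no order can be read among most members.

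**Figure D1:**
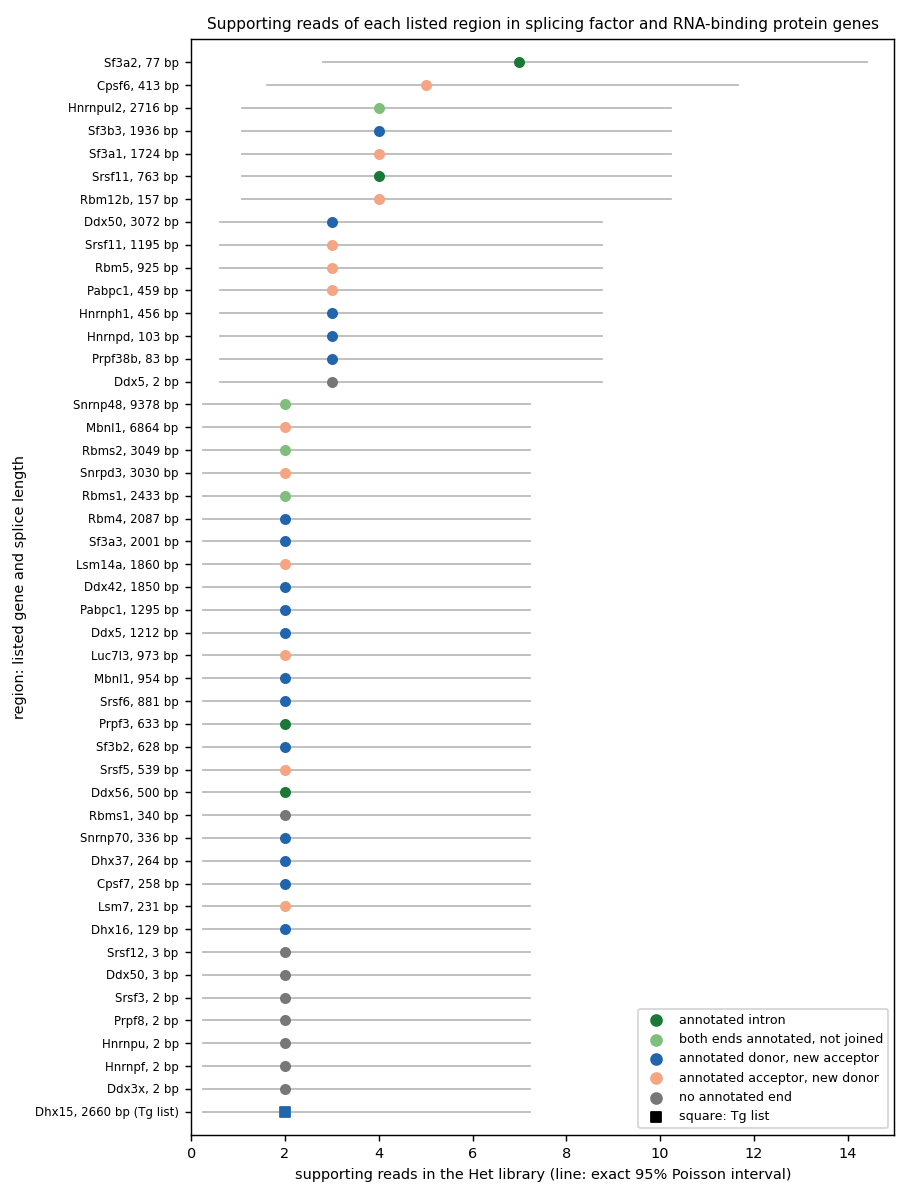
The horizontal axis gives supporting reads in the Het library for each of the 47 member regions, named by listed gene and splice length on the vertical axis, with points coloured by how the ends meet annotated splice sites and lines giving the exact 95% Poisson interval. *Sf3a2* with 7 reads and *Cpsf6* with 5 stand at the top, 31 Dtt regions have 2 reads, and all the intervals overlap.

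Splice lengths of the Dtt members ran from 2 to 9378 bp with a median of 583.5 bp (interval of the median 264 to 1195 bp). In the whole Dtt list they ran from 2 to 39231 bp with a median of 902 bp (815 to 996 bp). Regions over 1000 bp were 16 of 46 members, 34.8% (22.7 to 49.2%), beside 47.9% of the list. No member was between 10 and 50 bp long, so 8 were under 10 bp and the same 8 were under 50 bp. That is 17.4% (9.09 to 30.7%), beside 17.4% of the list under 10 bp and 18.9% under 50 bp. The length classes of the members thus lay within counting error of those of the list. Among regions of 50 bp and over, the median was 903 bp in the 38 members and 1420.5 bp in the list, a difference that was not tested.

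**Figure D2:**
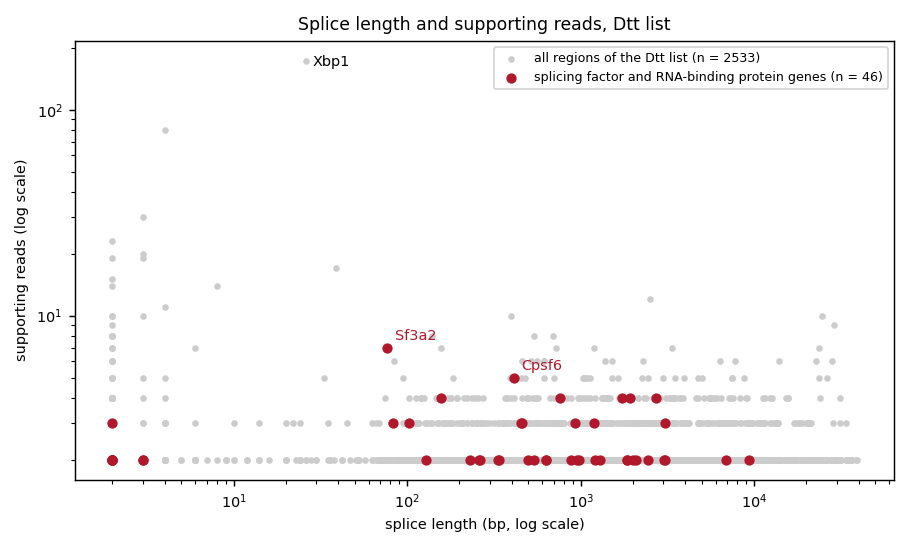
Splice length in bp on the horizontal axis and supporting reads on the vertical axis, both on log scales, are plotted for the 2533 regions of the Dtt list in grey and the 46 member regions in red. The members lie within the cloud of the list at 2 to 7 reads, with a group at 2 and 3 bp and the rest from 77 to 9378 bp.

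The SF3 genes held the best supported member. SF3a and SF3b are the parts of the U2 snRNP that hold it to the branch point. All 5 regions of this group came from different genes, with 19 reads in all. The *Sf3a2* region had 7 reads and a splice length of 77 bp, and its rank of 28 in the Dtt list was shared by 9 regions with 7 reads. It is intron 7 of 8 of the annotated transcript Sf3a2-004, which lies in the coding sequence, and its donor and acceptor scored low among annotated sites, at percentiles 12.8 and 6.00. The percentile places an end among the 193985 donors or 191300 acceptors of annotated GT-AG introns by how well its bases match their base frequencies.

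The *Sf3b3* region had 4 reads and 1936 bp. It began at the annotated donor of intron 11 of 25 and ended at a new acceptor, 3301 bases before the annotated one. Both ends matched annotated sites closely, at percentiles 99.1 and 99.4. Read straight on from the new acceptor, the frame met a stop codon within 11 bases. This and the later frames assume that no other gap follows before the next annotated exon ends. The *Sf3a1* region had 4 reads and 1724 bp, and its new donor lay 219 bases inside intron 5 of 15. The *Sf3a3* and *Sf3b2* regions had 2 reads each, with 2001 and 628 bp. In *Sf3a3* a new acceptor lay 1603 bases before that of intron 6 of 16, and the frame stopped after 51 bases. The *Sf3b2* gap was 1 base longer than intron 13 of 20 and read GT at one end and GG at the other.

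SR proteins were represented by 6 regions of 5 listed genes, with 15 reads. *Srsf11*, which encodes an SR protein that binds the U2 auxiliary factor, had 2 regions. The region with 4 reads and 763 bp at chr3:157686324-157687086 is intron 4 of 8 of Srsf11-008, a transcript annotated as a target of nonsense-mediated decay. The region with 3 reads and 1195 bp at chr3:157680856-157682050 used the annotated acceptor of intron 7 of 12 of Srsf11-001 and a new donor 225 bases inside that intron. Both *Srsf11* regions therefore had an annotated acceptor, and the last base kept before the second gap lies in an annotated intron.
Srsf11 763 bp, donor: tgtacatattGTatgtttta
Srsf11 763 bp, acceptor: tttttctgtgtgctttatAGtgaagcagcc
Srsf11 1195 bp, donor: tgctaagcagGTataaccac
Srsf11 1195 bp, acceptor: tctttcttttcttaaatcAGacaagaagga

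The other SR regions had 2 reads each. *Srsf5* had a 539 bp region with a new donor 690 bases inside intron 5 of 7, and its donor scored at percentile 0.338. *Srsf6* had an 881 bp region from the annotated donor of intron 2 of 5 to a new acceptor 402 bases before the annotated one, within an exon that GENCODE lists for a non-coding transcript. Its frame stopped after 71 bases. *Srsf3*, which encodes the smallest of the classical SR proteins, had a 2 bp region in its untranslated part, and the region listed as *Srsf12* removed 3 bp from the untranslated part of *Srek1*. The *Srsf* genes *Srsf3*, *Srsf5*, *Srsf6* and *Srsf11* are 4 of the 14 protein-coding SR genes in the annotation.

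The hnRNP genes gave 5 regions of 5 genes, with 14 reads. *Hnrnpul2*, related to the nuclear scaffold protein hnRNP U, had 4 reads. Its 2716 bp region joined the annotated donor of intron 1 to a later annotated acceptor and skipped 2 exons of 136 and 77 bases. *Hnrnph1*, which encodes a protein that binds runs of G, had 3 reads and a 456 bp region from the donor of intron 1 of 12 to a new acceptor 32 bases before the annotated one, ahead of the coding sequence. *Hnrnpd*, whose protein AUF1 binds AU-rich mRNA elements, had 3 reads and a gap of 103 bp, 3 bases shorter than intron 6 of 8. In the printed bases the annotated intron ends 3 bases after the listed gap, with cag. *Hnrnpu* and *Hnrnpf* had a 2 bp region with 2 reads each.

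RBM genes gave 6 regions of 5 listed genes, with 15 reads. The *Rbm12b* region had 4 reads and 157 bp, and its new donor lay 18 bases into the exon before intron 1 of 3, in the 5′ untranslated part. *Rbm5*, which encodes a splicing regulator of apoptosis genes, had 3 reads and a 925 bp region with a new donor 333 bases inside intron 1 of 24. The other 4 regions had 2 reads each. In the gene of the listed *Rbm4* region, a new acceptor lay 2268 bases before that of the intron, and the frame ran 212 bases to a stop. *Rbms2*, a gene of single-strand binding proteins, had a 3049 bp region that skipped an exon of 92 bases.

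*Rbms1*, of the same group as *Rbms2*, had 2 neighbouring regions. The 2433 bp region at chr2:60591040-60593472 skipped an exon of 85 bases and ended at the annotated acceptor of the last exon. The 340 bp region at chr2:60590596-60590935 began 104 bases further on in that exon and had no annotated end. Both acceptors scored at percentile 98.9, and the donor of the 340 bp region scored at 1.42. No read was shown to span both.

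The U snRNP and LSm genes gave 6 regions of 6 genes, all with 2 reads. *Snrnp70* encodes the U1 snRNP protein that binds the U1 RNA, and its 336 bp region ran from the annotated donor of intron 1 of 7 to a new acceptor 357 bases before the annotated one. *Snrpd3*, the gene of an Sm ring protein, had a 3030 bp region whose new donor cut 139 bases off the exon before intron 3 of 3. *Luc7l3*, whose protein joins the U1 snRNP, had a new donor 1668 bases inside intron 9 of 10, with 973 bp. *Lsm7*, an LSm ring gene, and *Lsm14a*, a P-body gene, had new donors 241 and 12 bases inside introns, with 231 and 1860 bp. *Snrnp48*, which encodes a protein of the minor spliceosome, had the longest region of all members, 9378 bp. It skipped exons of 89 and 159 bases between annotated sites and had GC-AG ends.

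The PRPF genes gave 3 regions with 7 reads. *Prpf38b*, related to a yeast factor of spliceosome activation, had 3 reads and an 83 bp region between the donor of intron 3 of 4 of a non-coding transcript and a new acceptor 654 bases before the annotated one. *Prpf3*, a U4/U6 snRNP gene, had 2 reads over a 633 bp intron annotated in Prpf3-006, a transcript marked for nonsense-mediated decay. *Prpf8*, the gene of the largest core protein of the spliceosome, had a 2 bp region in its coding sequence with 2 reads.

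RNA helicase genes gave the most Dtt regions, 9 of 7 genes, with 20 reads. *Ddx50*, which encodes a nucleolar helicase, had 3 reads for a 3072 bp region whose new acceptor lay 4 bases into the last exon, after intron 14 of 14, and 2 reads for a 3 bp region. After the new acceptor of *Ddx50* the frame ran 303 bases to a stop that is not the annotated one. *Ddx5*, which encodes the p68 helicase, a cofactor of splicing and transcription, had 3 reads for a 2 bp region in the coding sequence and 2 reads for a 1212 bp region, 53 bases shorter than intron 11 of 12, with GT and TG ends. The helicase genes *Ddx42*, *Ddx56*, *Dhx16*, *Dhx37* and *Ddx3x* had 1 region with 2 reads each.

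In those single regions, *Ddx56*, a nucleolar helicase of ribosome assembly, used a 500 bp annotated intron of Ddx56-002. *Ddx42*, a partner of SF3b, had a new acceptor 91 bases before that of intron 7 of 17 in a region of 1850 bp, with a stop after 18 bases. *Dhx37*, a helicase of small ribosomal subunit assembly, had a new acceptor 789 bases before that of intron 12 of 26 in a region of 264 bp, with a stop after 48 bases. *Dhx16*, the mouse counterpart of yeast Prp2, had a 129 bp region whose acceptor lay 51 bases into the exon after intron 17 of 19, and its frame reached the annotated stop.

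*Mbnl1* was the only listed gene of the tissue-type splicing regulators, whose prefixes Mbnl, Ptbp, Celf and Khdrbs covered families that switch exons between tissues. It had 2 regions with 2 reads each, and both lay in the same annotated intron, intron 3 of 9 with 7929 bases. The 954 bp region at chr3:60399687-60400640 began at its donor, and the 6864 bp region at chr3:60400752-60407615 ended at its acceptor. Between them lay 111 bases, chr3:60400641-60400751, with an AG before and a GT after, which no vM1 exon covers. The 954 bp, the 111 bases and the 6864 bp add up to the whole intron. The 111 bases are 37 codons, and the frame from the upstream exon met no stop in them, since its first stop came 132 bases after the new acceptor. No read was shown to cross both gaps. The 4 ends are printed because the inner pair bounds these bases.
Mbnl1 954 bp, donor: gcagcccgtgGTgagcacac
Mbnl1 954 bp, acceptor: taattattattctctcttAGaacataatgc
Mbnl1 6864 bp, donor: tacagtcgagGTgagagaat
Mbnl1 6864 bp, acceptor: ctttttgtttcaatttgcAGccaatgtttt

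Genes of poly(A) binding and 3′ end formation gave 4 regions of 3 genes, with 12 reads. *Cpsf6*, a subunit gene of cleavage factor I, had 5 reads (1.62 to 11.7), with a rank of 55 shared by 35 regions. Its 413 bp region had a new donor 240 bases inside intron 5 of 9 of Cpsf6-201. The new donor scored at percentile 1.71 and the annotated acceptor at 87.5. *Cpsf7*, the gene of a related subunit, had 2 reads and a 258 bp region with a new acceptor 562 bases before that of intron 3 of 9, and its frame stopped after 33 bases. *Pabpc1*, which encodes the cytoplasmic poly(A)-binding protein, had 3 reads for a 459 bp region whose new donor lay 4 bases inside intron 14 of 14. That donor, printed above, scored at percentile 0.00979, the lowest of all members. The second *Pabpc1* region had 2 reads and 1295 bp, and its new acceptor cut 180 bases off the exon after intron 7 of 14 while the frame reached the annotated stop. *Pabpc1* has processed copies in the mouse genome, and the authors allowed a read part to map to several places. The placement of its reads may therefore be uncertain, which was not tested.

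Among the 38 Dtt members of 50 bp and over, 34 had GT-AG ends on the strand of the gene. This was 89.5% (75.9 to 95.8%), beside 91.3% of the list. 1 had GC-AG ends (2.63%, beside 1.9%) and 3 had other ends (7.89%, beside 6.83%). None of these 38 had boundaries wider than 1 gap of the listed length allows, beside 0.39% of the list. Of the 34 GT-AG members, 4 were annotated introns, 11.8% (4.67 to 26.6%), beside 19.2%, and 3 joined annotated ends that no vM1 transcript joins, 8.82% (3.05 to 23.0%), beside 19.9%. Together, both ends were annotated in 7 of 34, which is 20.6% (10.3 to 36.8%), beside 39.1% of the list.

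A single annotated end was the most frequent type. It occurred in 26 of the 34 GT-AG members, 76.5% (60.0 to 87.6%), beside 58.6% (56.4 to 60.8%) of the list. With annotated sites from protein-coding transcripts only, the share of the members stayed at 76.5% (60.0 to 87.6%). Among the 13 members with at least 3 reads it was 76.9% (49.7 to 91.8%). Among the 19 of the core splicing families, which leave out the RBM, helicase and poly(A) and 3′ end genes, it was 78.9% (56.7 to 91.5%). The last 2 intervals, from fewer regions, included 58.6%, which is the share of the whole list and was not recounted for these settings. The end was a donor in 14 members, 41.2% (26.4 to 57.8%), beside 30.1%, and an acceptor in 12, 35.3% (21.5 to 52.1%), beside 28.5%. The *Rbms1* region of 340 bp was the 1 member without an annotated end, 2.94%, beside 2.24%. The interval of the members with both ends annotated lay below the share of the list. It also did with annotated sites from protein-coding transcripts only (14.7%, 6.45 to 30.1%, n = 34). With at least 3 reads (23.1%, 8.18 to 50.3%, n = 13) or in the core splicing families (21.1%, 8.51 to 43.3%, n = 19) the wider interval included that share. The share of the list, 39.1%, was likewise not recounted for these settings. The members are part of the list, and the difference was not tested.

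**Figure D3:**
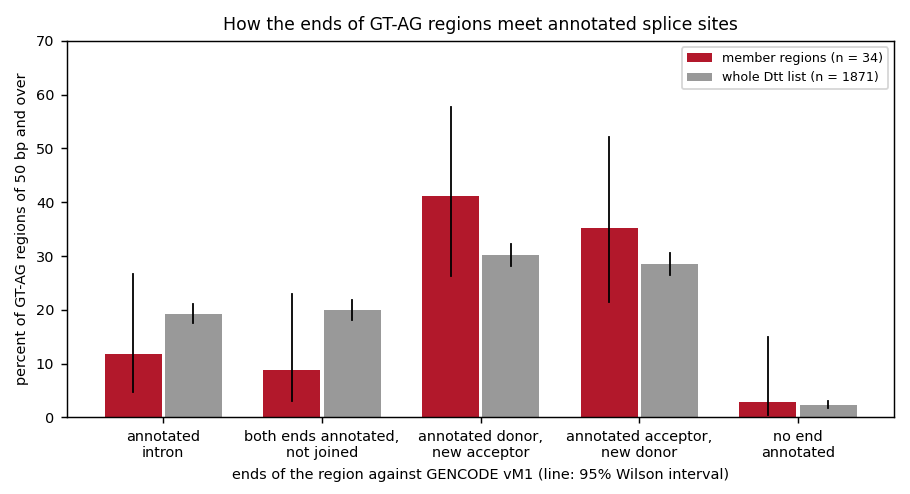
The vertical axis gives the percent of GT-AG regions of 50 bp and over in each class of ends on the horizontal axis, for 34 member regions in red and the 1871 such regions of the whole Dtt list in grey, with lines for 95% Wilson intervals. Members with a new acceptor (41.2%) or a new donor (35.3%) are the tallest bars, and members with both ends annotated are below the list, though each interval of the members is wide.

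The new end lay inside the annotated intron in 21 of the 26 members with 1 annotated end. This was 80.8% (62.1 to 91.5%), beside 65.6% of the list. The distances ran from 4 bases in *Pabpc1* to 6975 in *Mbnl1*, with a median of 402, and 10 of the new ends were donors and 11 were acceptors. A single gap does not show whether all bases from the new end to the annotated site were kept. Of the 6975 bases after the new acceptor in *Mbnl1*, its other region would remove 6864 and leave 111. In the other 5 members, *Pabpc1*, *Snrpd3*, *Dhx16*, *Rbm12b* and *Ddx50*, exon bases were removed, 4 to 180 of them with a median of 51. The distance was a multiple of 3 in 17 of the 26, 65.4% (46.2 to 80.6%), beside 33.8% of the list. This property was looked at after the values were seen, includes ends outside coding sequence, and was not tested.

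**Figure D4:**
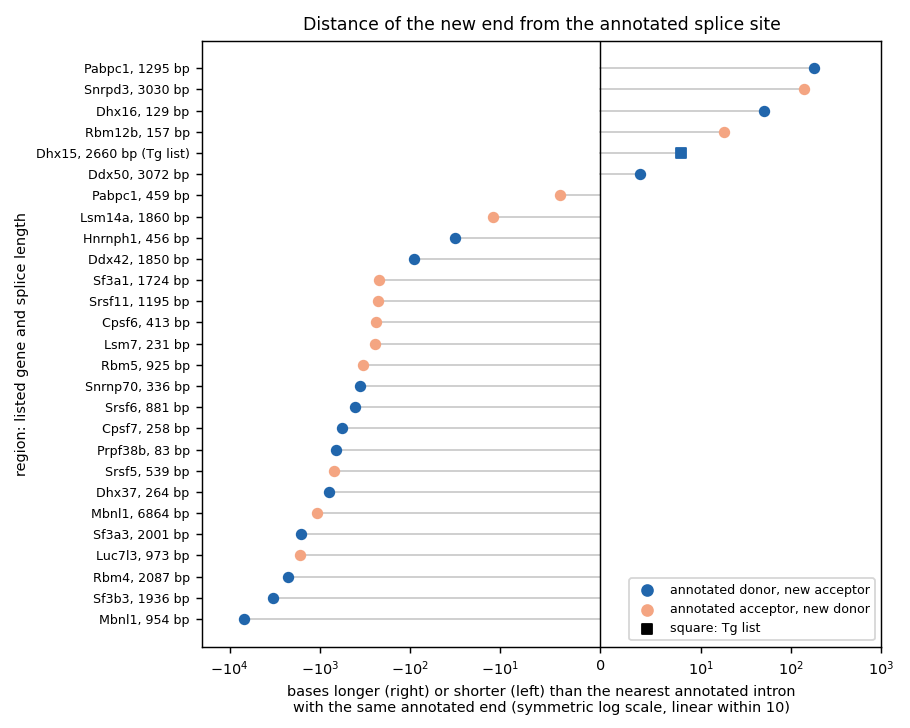
The horizontal axis, a symmetric log scale that is linear within 10, gives the bases by which each region with 1 annotated end is longer (right) or shorter (left) than the nearest annotated intron with that end, for the 26 Dtt members as circles and *Dhx15* of the Tg list as a square. The 21 points on the left run from 4 to 6975 bases and the 5 circles on the right from 4 to 180, with new donors and new acceptors on both sides.

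For 8 GT-AG members of the Dtt list a new acceptor inside an intron followed an annotated donor in coding sequence, so the frame could be read on. It was read straight through the intron bases that follow, so each stop holds only if no other donor is used before it. The frame met a stop within 150 bases in 7 of 8, 87.5% (52.9 to 97.8%), beside 78.8% of the 283 such GT-AG regions in the list. The 7 include *Mbnl1*, whose stop at 132 bases lies past the 111 bases between its regions, inside the second gap. The stops came after 11 to 212 bases, in order *Sf3b3*, *Ddx42*, *Cpsf7*, *Dhx37*, *Sf3a3*, *Srsf6*, *Mbnl1* and the listed *Rbm4*, with a median of 49.5 beside 54 in the list. The medians of members and list lay close together, and no protein was measured. The *Hnrnpd* and *Ddx5* regions without GT-AG ends were not counted here, and their frames ran 218 bases to the annotated stop in *Hnrnpd* and 68 bases to a stop in *Ddx5*.

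The ends differed in how well they matched annotated sites. Annotated donors of the members had a median percentile of 35.3 (n = 21 ends), beside 49.9 in the list, and new donors 14.9 (n = 13), beside 27.1. Annotated acceptors had a median of 47.2 (n = 19), beside 51.3, and new acceptors 28.7 (n = 15), beside 17.1. Ends of one kind spread widely, with new donors from 0.00979 in *Pabpc1* to 72.3 in *Mbnl1* and new acceptors from 1.39 in *Dhx16* to 99.4 in *Sf3b3*.

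**Figure D5:**
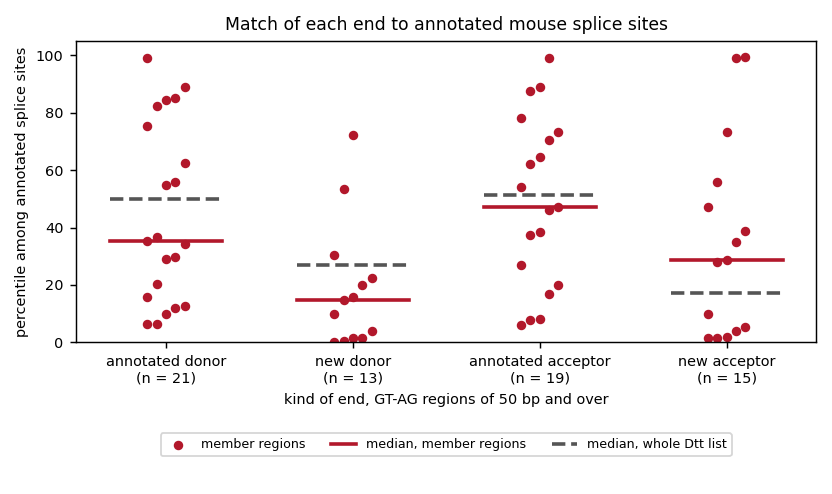
The vertical axis gives the percentile of each end of the 34 GT-AG members among annotated mouse splice sites, by kind of end on the horizontal axis, with red lines for the medians of the members and dashed grey lines for those of the whole Dtt list. New donors have the lowest median of the members (14.9), and new acceptors lie at both ends of the scale.

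The 8 shortest members removed 2 or 3 bases and make no intron. They lay in the coding sequence in *Ddx5*, *Ddx50*, *Prpf8* and *Hnrnpf* and in an untranslated part in *Hnrnpu*, *Srsf3*, *Ddx3x* and *Srek1*. *Ddx5* had 3 reads and the others had 2. In 6 of the 8, all of 2 bp, the listed boundaries lay farther apart than 1 gap allows, beside 40.6% of the list's regions under 50 bp. These windows were 14 bases wide in *Prpf8*, 22 in *Hnrnpf* and *Hnrnpu*, 35 in *Ddx3x*, 38 in *Ddx5* and 52 in *Srsf3*. A run of 10 T lay in the *Hnrnpu* window, and a run of 12 A in that of *Ddx3x*. Regions of exactly 2 bp were 13.0% of the members (6.12 to 25.7%), beside 14.3% of the list.

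Windows of 30 bases or less are shown with their flanks, because the bases in them bear on where the gap could lie. Capitals mark a run of 1 base in *Hnrnpu* (chr1:180259181-180259210, minus strand), *Hnrnpf* (chr6:117873968-117873997, plus strand) and *Prpf8* (chr11:75322088-75322113, plus strand), and the listed boundaries in *Ddx50* (chr10:62090317-62090334, minus strand) and *Srek1* (chr13:104532771-104532786, minus strand).
Hnrnpu: tgacTTTTTTTTTTatcacaacaaaagtaa
Hnrnpf: atgatgtaaaattggctctgAAAAAAgaca
Prpf8: tgtcaccactcatgccAAAAtcatgg
Ddx50: aatgtgGCTGCTcgtggc
Srek1, listed as Srsf12: tactgtTCCTgggatt

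The *Ddx50* region removed 1 of a pair of adjacent GCT units, and a read cannot tell which. Removal of 3 bases there leaves the frame as it is.

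In the Tg list, *Dhx15* was the only member. It encodes the helicase that takes the spliceosome apart after splicing, the mouse counterpart of yeast Prp43. Its region, chr5:52548809-52551468 on the minus strand, had 2 reads and 2660 bp, and 89.1% of the Tg list also had 2 reads. The annotated donor of intron 10 of 13 was joined to a new acceptor 8 bases into the next exon, and the frame stopped after 41 bases. These ends hold for a gap moved over equal bases past the listed boundary, and no placement inside the boundaries had GT-AG ends. No member gene occurred in both lists. Only *Dhx15* could have done so, and the overlap of all listed genes was not counted. The lack of overlap therefore does not set the members apart from the lists.
Dhx15 donor: atgttgtcagGTaatagagg
Dhx15 acceptor: aaccttgtttagtcccacAGtgttttgttc

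By gene, 39 of the 223 protein-coding genes with these prefixes in GENCODE vM1 held a Dtt region listed under one of the prefixes. This was 17.5% (13.1 to 23.0%), beside 8.78% of all 22380 protein-coding genes with any Dtt region by position. Another 3 Dtt regions listed under symbols without these prefixes lie by position in genes with these prefixes. Of these, 1 listed as *Gm10052*, the name of a pseudogene, with 3 reads and 1240 bp, lies in *Hnrnpa1*, and 2 listed as *Bat1a*, with 2 reads each, lie in *Ddx39b*. With them, 41 of 223 genes held a region, 18.4% (13.9 to 24.0%), hnRNPs in 6 of 18 and helicases in 8 of 54. Listed genes with 1 region numbered 34 and those with 2 numbered 6, and *Srek1* lies outside the prefixes. By listed prefix, the SF3 and U2AF group had regions in 5 of 11 genes, SR proteins in 4 of 14, hnRNPs in 5 of 18, PRPF in 3 of 13, U snRNP and LSm proteins in 6 of 35, poly(A) and 3′ end factors in 3 of 21, helicases in 7 of 54, RBM genes in 5 of 43 and tissue-type regulators in 1 of 14. Of the 21 prefixes, 14 had a Dtt region, and Sfrs, Ptbp, Celf, Tra2, U2af, Khdrbs and Cstf had none. The lists hold no expression level of any gene, and how these shares relate to expression was not tested.

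Other genes of pre-mRNA processing, on a list of 95, were read in the same way. A Dtt region was listed for 27 of them, 28.4% (20.3 to 38.2%), beside 8.78% of all protein-coding genes. A Tg region was listed for 0, but the whole Tg list held 55 genes, too few to read this as a result. With 3 or more reads there were 8, 8.42% (4.33 to 15.7%), beside 2.39% of all protein-coding genes. The relation of these shares to expression was not tested either. *Srpk2*, a kinase gene whose product phosphorylates SR proteins, had 4 reads and 5769 bp, and *Scaf1*, an SR-related gene, had 4 reads and 120 bp. Those with 3 reads included *Igf2bp1*, *Mettl3*, *Srrm1*, *Upf1* and *Nono*, with splice lengths from 2 bp in *Nono* to 2427 bp in *Srrm1*. *Srrm1* encodes a splicing coactivator, *Upf1* the central helicase of nonsense-mediated decay, and *Mettl3* the mRNA methylase that makes m6A.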

How the data were processed

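The authors mapped the reads with Bowtie to mm9 and to known exon junctions, split the unmapped reads, mapped the parts and joined read parts of like splice length into regions. Regions close to a known junction of their annotation, or found in the KO library, were left out. The deposited counts are raw numbers of supporting reads in the Het library, with a minimum of 2. They are not normalized, and splice lengths and boundaries are given in bp. 0 columns of per-sample values were left unused.

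Member regions were found by symbol. Their genes were matched to GENCODE vM1 on mm9 by symbol for 44 Dtt regions and by position for 2. A gap of the listed length was tried at each position that the boundaries, or equal bases beside them, allow. On the strand of the gene, annotated introns were preferred, then GT-AG, then GC-AG, then AT-AC ends. Some gaps lie within 5 bp of a vM1 junction, and the authors' table of junctions was not compared with vM1 here. Ends were scored by base frequencies over 9 bases at donors (3 kept, 6 removed) and 23 at acceptors (20 removed, 3 kept). The placement and end calls were tested on simulated data.

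No test was run, because there was 1 library per group and the KO columns hold no number. Shares are given with Wilson intervals and reads with exact Poisson intervals, at 95%. The members and the gene lists were chosen with earlier results of these data known. Apart from the rule for membership, a rule set which members the text gives with values: the Tg member, Dtt members with 3 or more reads or under 50 bp, genes with 2 regions and SR genes. Values of the other members, the site scores, the frames and the multiples of 3 were added after the data were seen. Where read depth is concerned, the lists hold a part of each library, so no read number was scaled. The values of 1 gene on the list of other processing genes are not reported here. The tools were matplotlib 3.10.9, pysam 0.24.0, scipy 1.17.1 and numpy 2.4.6 under Python 3.11.15.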

Additional observations from a re-analysis of the deposited data

How the results depend on the processing

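Of 27 alternatives, 21 moved a value by less than its counting interval or, for a number of regions, by less than 1.5 times. The other 6 were stricter read minimums or narrower lists. The 46 Dtt members became 15 with at least 3 reads, 2 with at least 5 and 27 in the core splicing families. The 32.6% with 3 or more reads became 15.2% with 4 or more. With at least 3 reads, regions under 10 bp were 1 of 15 members, 6.67% (1.19 to 29.8%), in place of 17.4%. The share of the list under 10 bp at that minimum was not counted. Genes with a region went from 17.1% to 6.14% of the annotated member genes, beside 2.39% of all protein-coding genes. Counting these genes by position, an alternative chosen after seeing the data, gave 41 in place of 39. The share of GT-AG ends stayed between 86.4% and 92.9%, and that of both ends annotated between 14.7% and 23.1%. No paired analysis was possible because the KO columns hold no number and each group has 1 library, and no replicate could be left out. Reads carry no molecular identifiers, so 2 reads need not be 2 molecules.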
